A study of Mus musculus with 14 samples.

Results

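DNA methylation was described at the CpG sites that the deposited table lists for genes of the mitochondrial respiratory chain, the ATP synthase and the mitochondrial ribosome. A site was taken where the symbol of its nearest transcript began with Nduf, Sdha to Sdhd, Uqcr, Cox followed by a digit, Atp5, Mrpl or Mrps. This gave 169 of the 75761 sites of the series, listed for 41 genes, out of 187 protein-coding genes of RefSeq whose symbols fit the same rule. Reduced-representation bisulfite sequencing (RRBS) cuts DNA with MspI at CCGG, sequences the short fragments, and reports the methylated share of reads at each cytosine.

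The tissue was the mammary fat pad contralateral to an E0771 mammary tumor in 14 female wild-type mice, given as C57BL/6N in the labels and as C57BL/6NCrl in the methods. CON-LFD mice (n = 3) ate a low-fat diet with 10% of calories as fat throughout. DIO-HFD mice (n = 4) ate a high-fat diet with 60% of calories as fat throughout. DIO-LFD (n = 3) and DIO-VSG (n = 4) mice ate the 60% diet for 15 weeks and then the 10% diet. DIO-VSG mice underwent vertical sleeve gastrectomy (VSG) at that change, and mice of the other groups had a sham procedure. Mice were 8 weeks old on arrival. E0771 cells were injected in week 22, and tissue was taken 4 weeks later, so every group carried a tumor. Week 22 counts the 15 weeks on the first diet and the 7 weeks from surgery to injection, and is not an age. The labels also name E0771 and mouse mammary cancer as the cell line and type, although the tissue named is the contralateral fat pad. No read counts accompany the levels. The depth per mouse is therefore unknown, and no counting error can be given.

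The respiratory chain passes electrons from NADH and succinate to oxygen through complexes I to IV in the inner mitochondrial membrane, and the ATP synthase uses the proton gradient this builds to make ATP. A few core subunits are encoded in mitochondrial DNA and translated by the mitochondrial ribosome, while the other subunits and all ribosomal proteins come from nuclear genes. Many of these nuclear genes are used in nearly every cell, start in CpG islands and have binding sequences of the factors GABPA, NRF1 and YY1 near their starts. In adipose tissue the respiratory chain supports the adipocyte's lipid turnover.

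The sites were not mainly at the promoters of these genes. The table flags 47 of the 169 sites as promoter, in 23 genes, and 26 as both promoter and CpG island, in 17 genes. By the GENCODE annotation of the same build, 44 sites lay inside the gene they are listed for and 8 up to 1000 bp upstream of it. Another 64 lay inside another protein-coding gene and 53 outside protein-coding genes. For 15 of the 41 genes, including Ndufa4, Cox7c and Cox7b2, no site lay inside the gene or within 1000 bp upstream. The 22 sites listed for Mrps23, a protein of the small ribosomal subunit, were all inside Cuedc1, and 18 of the 19 sites listed for Mrpl38, of the large subunit, were inside Fbf1. These sites are therefore described by where they lie.

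Fragments with CCGG at both ends carry the main pattern at the promoters, and the sequences of 3 promoter fragments are shown beside 1 fragment from an intron far from any promoter of these genes. They are from the plus strand of GRCm38 (mm10), with the CCGG at each end in capitals.
Ndufb7, intron, chr8:83566994-83567103: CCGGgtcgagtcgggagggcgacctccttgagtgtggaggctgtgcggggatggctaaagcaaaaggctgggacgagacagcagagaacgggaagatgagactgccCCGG
Ndufv1, intron, chr19:4012195-4012300: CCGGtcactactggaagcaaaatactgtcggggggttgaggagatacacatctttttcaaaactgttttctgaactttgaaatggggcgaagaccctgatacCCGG
Ndufa4l2, coding exon to intron, chr10:127515014-127515130: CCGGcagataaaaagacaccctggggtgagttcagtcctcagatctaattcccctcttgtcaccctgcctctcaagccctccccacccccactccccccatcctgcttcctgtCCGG
Cuedc1 intron, listed for Mrps23, chr11:88168760-88168858: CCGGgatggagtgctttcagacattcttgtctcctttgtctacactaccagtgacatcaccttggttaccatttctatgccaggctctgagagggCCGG

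The deposited promoter island sites of the respiratory and ribosomal genes had intermediate levels. They came from 17 genes, out of 187 that fit the rule, so the other promoters are not described. The methods name a filter on bases of low variability, although some such sites were still present. Sites steadily unmethylated in all mice may therefore be missing, and the part of this in the levels was not tested. Over the 14 mice, the 26 sites had a median level of 48.5% (quartiles 38.8 and 56.9%), and 23 of them lay between 30 and 70%. All but 1 of the 26 were within CCGG. The exception was the site 22 bp before the start of Mrps18a, a small subunit protein, at a mean of 0.945% and between 0 and 7.69% in the 14 mice. Across the rest of the series, the 6606 promoter island sites within CCGG had a median of 49.8%, and the 3771 outside CCGG had a median of 23.5%. Of the promoter sites of cytosolic ribosomal proteins, which are also used in nearly every cell, the 44 within CCGG had a median of 51%.

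The surroundings of the Mrps18a site, and of a pair of neighboring sites in the Ndufa4l2 promoter, are shown from the plus strand of GRCm38, with each CpG measured in capitals.
Mrps18a, chr17:46110934-46110985: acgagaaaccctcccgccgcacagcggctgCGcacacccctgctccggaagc
Ndufa4l2, chr10:127514206-127514267: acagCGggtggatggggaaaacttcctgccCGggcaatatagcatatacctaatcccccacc
Ndufa4l2 is a relative of Ndufa4 that is induced by hypoxia. Its site 729 bp before the start, outside CCGG, had a mean of 16.3% and lay between 9.8 and 30% in the 14 mice. The site 703 bp before the start, within CCGG, had a mean of 82.5% and lay between 64.4 and 100%. The 3 sites from 980 to 992 bp before the start, all outside CCGG, had means of 6.38, 6.98 and 14.7%.

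**Figure D1:**
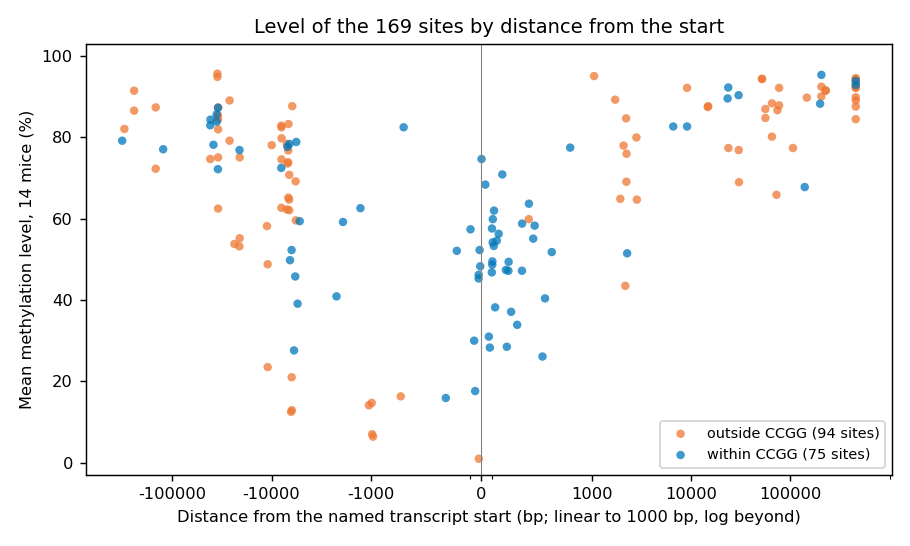
Mean methylation level over the 14 mice (%) of each of the 169 sites against its distance from the start of the transcript it is listed for (bp), colored by whether the CpG is within CCGG. Of the 47 promoter sites 41 were within CCGG and 33 lay between 30 and 70%, and the 67 sites at least 20000 bp away had a median of 87%.

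The levels at both ends of 1 promoter fragment were close to complementary in each mouse. For Ndufb7, a complex I subunit, the left end had 33.9% ± 3.85 (SD, n = 14) and the right end 63.7% ± 4.41, and their sum was 97.6% ± 1.91, from 93.4 to 101% in the 14 mice. The sum varied less than either end. For Mrpl49, a protein of the large ribosomal subunit, ends of 54.2% ± 4.82 and 45.3% ± 5.3 summed to 99.5% ± 2.22. For Mrpl43, also of the large subunit, whose fragment ends in the neighboring Twnk, ends of 17.6% ± 4.12 and 80.6% ± 4.36 summed to 98.2% ± 2.1. The Ndufa4l2 fragment had ends of 28.3% ± 6.84 and 70.9% ± 5.71 and a sum of 99.3% ± 4.19. Thus a low promoter end stood beside a high one and a middle one beside a middle one, as in Ndufv1, the NADH-binding subunit of complex I, with 55.1% ± 5.11 and 47.2% ± 3.35 and a sum of 102% ± 3.39.

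Of the 16 fragments with both ends in promoters, 12 had a mean sum between 90 and 110%, and in 9 the sum varied less over the mice than either end. The fragments of Atp5b, the catalytic beta subunit of the ATP synthase, and Ndufaf3, a complex I assembly factor, had sums of 95.9% ± 9.28 and 98.7% ± 4.72. The exceptions included Sdhb, the iron-sulfur subunit of complex II, at 129% ± 9.07, and Mrpl23 at 87.7% ± 3.23. Of the 3 fragments outside promoters, 2 in Cuedc1 and 1 in an intron of Hdgf, none had a sum in that range, and their median was 159%. The Cuedc1 fragment shown had ends of 85.7% ± 3.86 and 83.9% ± 6.18 and a sum of 170% ± 9. In the rest of the series, 75.6% of the 2512 fragments with both ends in promoters and 29% of the 1933 with both ends outside promoters had a sum in that range. The sum varied less than either end in 65.3% of these 2512 promoter fragments. With both ends in promoter islands, 81.3% of 1672 fragments had a sum in that range. When libraries are made, the overhang left by MspI is filled in, so that on 1 strand the C of the end CpG comes from the added nucleotides and not from the tissue. Whether such calls were removed is not given in the sources used here, and their part in these levels was not tested. The level of a promoter site within CCGG is therefore given below as the value in the table.

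**Figure D2:**
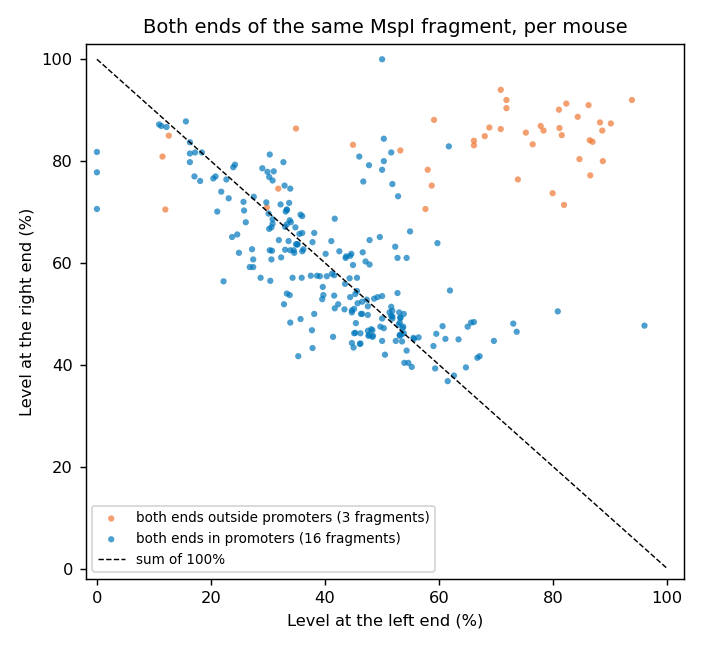
Level at the right end against the level at the left end (%) of the 19 fragments with a site of these genes, 1 point per fragment and mouse, colored by position, with a dashed line where the ends sum to 100%. Most points of the 16 promoter fragments lie near the line, those of Sdhb and some of Cox14 above it, and most points of the 3 fragments outside promoters lie above it.

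Promoter windows of RefSeq, from 250 bp before to 50 bp after each start, were searched on both strands for short motifs. The core CCGGAAG of ETS factors such as GABPA, which contains the MspI sequence, was found in 53 of 158 genes that fit the rule and have a window (33.5%), against 12.9% of protein-coding genes. GCGCATGC, the core of NRF1, was found in 12.7% against 3.94%, and AAGATGGCG, the core of YY1, in 10.8% against 2.14%. The Mrps18a window held the ETS and YY1 cores. Measured promoter sites inside CCGGAAG were found in 4 genes, with mean levels of 17.6% in Mrpl43, 30% in Mrpl23, 68.4% in Cox14 and 74.7% in Mrps12. Over the series, the 183 promoter island sites inside CCGGAAG had a median of 47.5%, and the 6448 in other CCGG had a median of 49.9%.

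DIO-HFD replicate 1 stood apart from the other DIO-HFD mice. Over all tested sites its mean level was 66.2%, against 57.2, 57.6 and 57.6% in replicates 2, 3 and 4. Results are given with and without this mouse. Leaving it out was a choice made after its levels were seen. Each p-value or count without it is therefore descriptive and does not test the groups. Of the 169 sites, 140 in 32 genes had a standard deviation of at least 0.05 (5 percentage points) and were tested, beside 65610 sites in all. Tests used limma on M, the log2 ratio of methylated to unmethylated share, with Benjamini-Hochberg adjustment over all tested sites. The 3 comparisons with DIO-HFD share its 4 mice.

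At the promoter island sites the 4 groups overlapped in their mean level. Over the 15 such sites tested, it was 47.9% ± 2.56 in CON-LFD (45, 49.8 and 48.9%), 49.9% ± 0.784 in DIO-HFD (50.6, 50.1, 48.8 and 50.2%), 48.7% ± 1.97 in DIO-LFD (46.9, 50.8 and 48.3%) and 50.6% ± 1.48 in DIO-VSG mice (50.3, 51.3, 48.7 and 52.1%). CON-LFD differed from DIO-HFD by -2.01 percentage points, less than the SD of CON-LFD and more than that of DIO-HFD, and by -0.549 points without CON-LFD replicate 1. DIO-LFD differed from DIO-HFD by -1.26 points, or -0.38 without DIO-LFD replicate 1 and -2.32 without DIO-LFD replicate 2. DIO-VSG differed from DIO-HFD by 0.656 points, with 0.145 and 1.3 when its replicates 4 and 3 were left out, and from DIO-LFD by 1.92 points, with 1.04 and 2.98 when DIO-LFD replicates 1 and 2 were left out. All 15 sites were within CCGG, and both ends of the Atp5b, Ndufaf3 and Ndufv2 fragments were among them. Where ends sum to about 100% their mean is held near 50%, so overlap of the groups here does not show that tissue methylation was alike. DIO-HFD replicate 1 did not stand apart here. Without it, the differences from DIO-HFD were -1.78, -1.03 and 0.882 points for CON-LFD, DIO-LFD and DIO-VSG.

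Outside promoters, the level was lower in 3 of the 4 DIO-HFD mice. Over 113 sites, the means were 78.6, 70.1, 70.4 and 69.6% in DIO-HFD replicates 1 to 4, between 72.3 and 77.7% in CON-LFD, between 74 and 77% in DIO-LFD and between 75.9 and 77.6% in DIO-VSG mice. Over all tested sites outside promoters, the same 4 mice had 71.3, 61.8, 61.6 and 62%. Without replicate 1, DIO-VSG exceeded DIO-HFD by 6.98 points at the sites of these genes and by 7.88 points at all sites outside promoters.

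**Figure D3:**
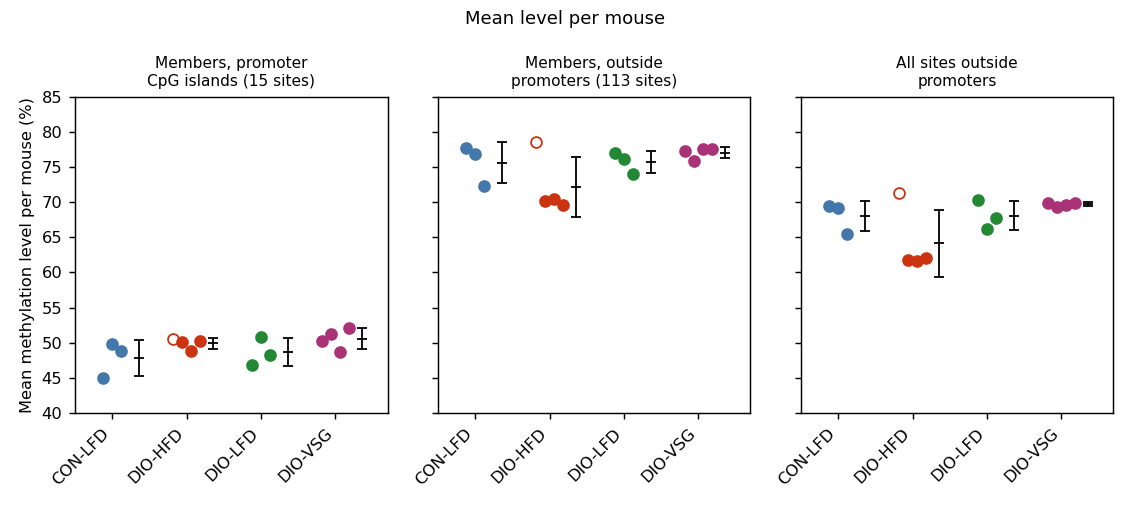
Mean level of each mouse (%) by group over the promoter island sites of these genes, their sites outside promoters, and all tested sites outside promoters. Each point is a mouse, the open point is DIO-HFD replicate 1, and bars are mean ± SD. The groups overlap at promoter islands, and the 3 filled DIO-HFD points lie below all other mice outside promoters.

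In no comparison did a site of these genes pass an adjusted p of 0.05 in limma. Over all tested sites, 0% passed in CON-LFD against DIO-HFD and 0.00305% in each of the other 3 comparisons. At an unadjusted p under 0.05, 4 of the 140 sites were higher and 3 lower in CON-LFD than in DIO-HFD (6.00% and 1.76% of all tested sites). In DIO-LFD against DIO-HFD, 10 were higher and 2 lower (7.92% and 2.16% of all). In DIO-VSG against DIO-HFD, 17 were higher and 8 lower (20.2% and 4.85% of all). In DIO-VSG against DIO-LFD, 5 were higher and 1 lower (2.42% and 1.55% of all). With each mouse centred on its median, the higher and lower sites were 1 and 6, 5 and 4, 8 and 14, and 1 and 1 in these comparisons, so that in CON-LFD and DIO-VSG against DIO-HFD more were lower than higher. The shares of all tested sites after centring are not given here, so this split cannot be read as particular to these genes. The median difference over the 140 sites was 3.2, 3.7, 5.3 and 1.4 points in these comparisons, beside 3.7, 3.8, 5.4 and 1.7 points over all tested sites. For some sites named below, it is stated that groups did not overlap. The share of all tested sites without overlap is not given here, so such statements describe single sites and have no background beside them.

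With DIO-HFD replicate 1 left out, a choice made after its levels were seen, sites passed in each comparison with DIO-HFD. In CON-LFD, 9 were higher and 5 lower at an adjusted p under 0.05 in limma (9.67% and 2.30% of all tested sites). In DIO-LFD, 11 were higher and 5 lower (12.1% and 2.42% of all), and in DIO-VSG, 32 were higher and 8 lower (28.8% and 5.62% of all). Between DIO-VSG and DIO-LFD the count stayed at 0. Of the 40 in DIO-VSG, 18 were listed for Mrps23 and lay in Cuedc1, 9 were listed for Mrpl38 and lay in Fbf1, and 5 were listed for Ndufa4l2. The other 8 were listed for Ndufa4 and Ndufb9 (2 each), Atp5d, Cox7b2, Mrpl23 and Mrpl24 (1 each). Of the 40, 1 was flagged as promoter, the Ndufa4l2 site 729 bp before the start. It had 10, 24.4, 26.1 and 26.1% in DIO-HFD, 12.1, 10.3 and 12.5% in CON-LFD, 13.1, 30 and 14.8% in DIO-LFD, and 9.8, 10.8, 15 and 12.5% in DIO-VSG mice. DIO-HFD replicates 2 to 4 were above the other mice there, except DIO-LFD replicate 2, and DIO-VSG was lower than these 3 mice by -1.28 in M (adjusted p of 0.0133 in limma).

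The sites in Cuedc1, which encodes a protein with a ubiquitin-binding CUE domain, differed from DIO-HFD upward in 1 stretch and downward in the next. In DIO-VSG against DIO-HFD, 5 of the 20 tested sites were higher and 7 lower at an unadjusted p under 0.05 (20.2% and 4.85% of all tested sites). A site of each stretch is shown with their surroundings from the plus strand of GRCm38 and the measured CpGs in capitals.
Cuedc1 intron, chr11:88180726-88180787: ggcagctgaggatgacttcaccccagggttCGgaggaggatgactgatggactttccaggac
Cuedc1 intron, chr11:88183452-88183513: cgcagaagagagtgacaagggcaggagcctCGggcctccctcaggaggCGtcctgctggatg
At the site 23632 bp upstream of Mrps23 (88180756), the level was 73.3, 22, 20.5 and 21.7% in DIO-HFD replicates 1 to 4. It was 68, 57.6 and 39.8% in CON-LFD, 72.2, 45.3 and 60.4% in DIO-LFD, and 66.3, 60.6, 71.2 and 74.4% in DIO-VSG mice. The 3 DIO-HFD mice other than replicate 1 were below all others. Without replicate 1, DIO-VSG was higher by 2.92 in M, with an adjusted p of 0.00147 in limma. With it, the difference was 2.10 ± 0.68 (SE), with an adjusted p of 0.15.

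At the site 20906 bp upstream (88183482), the order of the groups was the opposite. The level was 50.8, 80.6, 76 and 78.1% in DIO-HFD mice, 42.5, 48 and 60.4% in CON-LFD, 51.2, 51.3 and 60.7% in DIO-LFD, and 42.7, 39.4, 47.1 and 44.3% in DIO-VSG mice. The DIO-VSG and DIO-HFD groups did not overlap, with DIO-VSG lower by -1.74 ± 0.41 (SE) in M, an unadjusted p of 0.000966 and an adjusted p of 0.15 in limma. Without DIO-HFD replicate 1 the difference was -2.18 and the adjusted p 0.00108. CON-LFD and DIO-LFD also differed from DIO-HFD at this site by -1.35 ± 0.44 and -1.11 ± 0.44 in M, with adjusted p of 0.611 and 0.494. Without DIO-HFD replicate 1 these were -1.79 and -1.55, with adjusted p of 0.0132 and 0.0127 in limma.

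The stretches were then summed by their distance from the Mrps23 start, a division made after the values were seen. Over the 13 tested sites more than 22000 bp upstream, DIO-HFD mice had means of 85.4, 62.4, 66.7 and 65.1%, and the 10 mice of the other groups lay between 75.2 and 83.5%. Over the 7 sites nearer than that, DIO-HFD mice had means of 48.1, 74.3, 73.4 and 70.5%, and the other mice lay between 45.3 and 60.7%. DIO-HFD replicate 1 was above the other groups in the far stretch and within their range in the near one. None of the 22 sites lay in the Mrps23 gene itself.

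**Figure D4:**
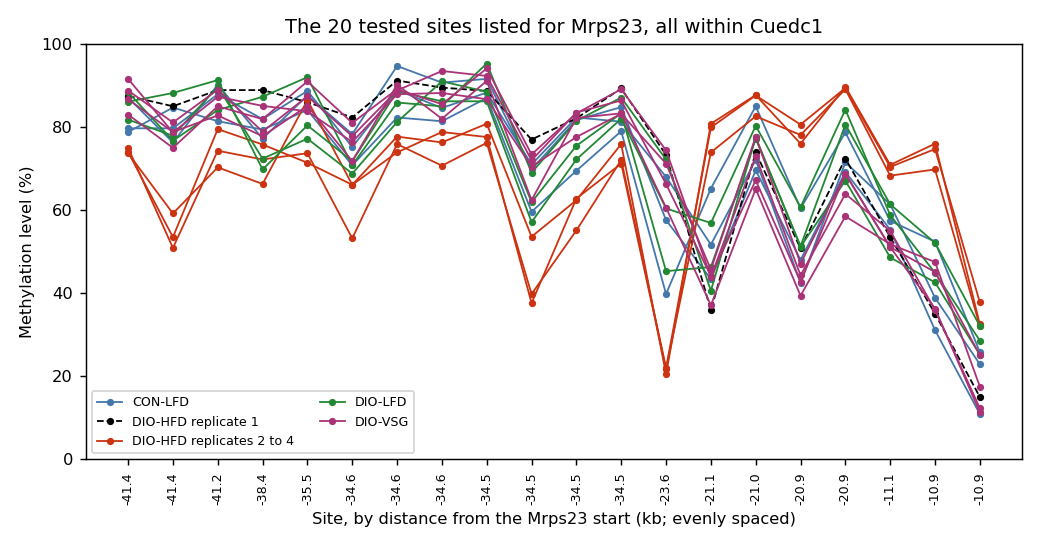
Level (%) of each mouse at the 20 tested sites listed for Mrps23, ordered by distance from its start (kb) and evenly spaced, with lines colored by group. DIO-HFD replicates 2 to 4 lie lower than most other mice at the 13 sites more than 22 kb upstream and higher than most at the 7 sites nearer to the start, and replicate 1 (dashed) lies with or beyond the other groups.

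At the 18 sites in Fbf1 listed for Mrpl38, the difference of DIO-VSG from DIO-HFD was positive at each, at most 21.5 points. Their mean was 82.7, 59.3, 66.9 and 60.5% in DIO-HFD, 80.7, 75.2 and 62.6% in CON-LFD, 83.2, 70 and 71.3% in DIO-LFD, and 79.4, 78.1, 80.1 and 78.4% in DIO-VSG mice. CON-LFD replicate 3 fell among the lower DIO-HFD mice. In DIO-VSG against DIO-HFD, 3 of the 18 sites had an unadjusted p under 0.05, each higher, a share below the 20.2% of all tested sites that were higher. The widest range among them was at 116146842, with 87.4, 62, 61.2 and 40.3% in DIO-HFD and between 77 and 86.3% in DIO-VSG mice. The 1 promoter island site of Mrpl38, 141 bp after its start, was between 47.6 and 63.1% in the 14 mice.

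At the end of Ndufa4l2 and in the adjoining Shmt2, the mitochondrial serine hydroxymethyltransferase on the opposite strand, 8 sites more than 2000 bp after the Ndufa4l2 start had means of 71.8, 52, 56.4 and 56.9% in DIO-HFD mice. The other 10 mice lay between 63 and 77.5%. The site at 127517185, in an untranslated part of Shmt2, was at 76.6, 47.4, 62.7 and 54.3% in DIO-HFD, 89.7, 84 and 74.4% in CON-LFD, 85.6, 71.4 and 80% in DIO-LFD, and 84.1, 79.1, 86.8 and 87.7% in DIO-VSG mice. DIO-VSG did not overlap with DIO-HFD and differed by 1.77 ± 0.45 in M (adjusted p of 0.15 in limma, 0.00385 without DIO-HFD replicate 1). The difference for CON-LFD was 1.65 ± 0.49 (adjusted p of 0.611, 0.0211 without that mouse). At 127517215, DIO-LFD mice had 63.9, 57.1 and 53.4% and DIO-HFD mice 50, 43.1, 32 and 28.3%, without overlap, a difference of 1.16 ± 0.39 in M (adjusted p of 0.494, 0.0271 without that mouse).

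**Figure D5:**
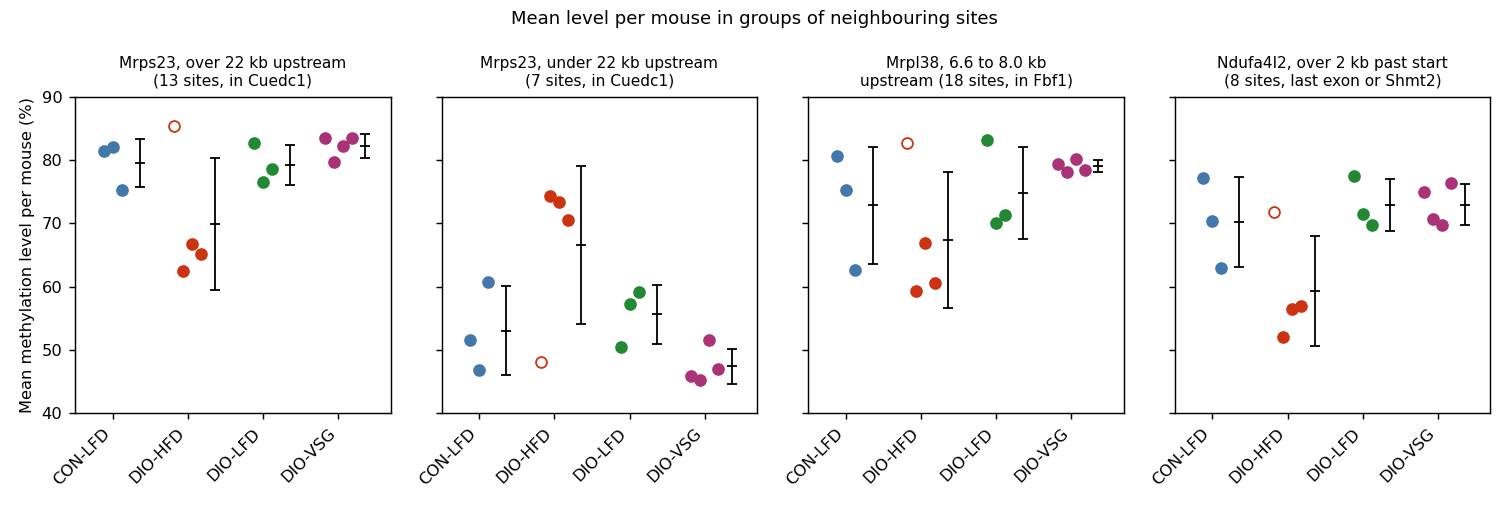
Mean level of each mouse (%) by group over neighboring tested sites listed for Mrps23 (both stretches, in Cuedc1), Mrpl38 (in Fbf1) and Ndufa4l2 (at its end and in Shmt2). Each point is a mouse, the open point is DIO-HFD replicate 1, and bars are mean ± SD. DIO-HFD replicates 2 to 4 are low in 3 panels, with CON-LFD replicate 3 among them for Mrpl38, and high in the Mrps23 stretch nearest to the start.

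Other distant sites lay outside protein-coding genes. The 17 sites listed for Ndufa4, a small subunit first assigned to complex I and since to complex IV, lay 74152 to 456190 bp from its start and had a median level of 92.2%. At 11451774, DIO-VSG mice had 96.2, 96, 98.4 and 100% and DIO-HFD mice 93.8, 85.7, 85.7 and 84.8%, without overlap, a difference of 2.34 ± 0.72 in M (adjusted p of 0.15 in limma, 0.0216 without DIO-HFD replicate 1). At 11451393 CON-LFD mice had 89.7, 100 and 100% and DIO-HFD mice 88.2, 81.8, 91.7 and 85.7%, which overlapped. The 6 sites listed for Cox7c and the 5 for Cox7b2, a testis form of a complex IV subunit, had medians of 84.4 and 90.1%. At the Cox7b2 site 71342628, DIO-HFD mice had 100, 89.7, 85 and 85.7%, and the other 10 mice lay between 93.3 and 100%. CON-LFD and DIO-LFD passed an adjusted p of 0.05 at this site without DIO-HFD replicate 1 (0.0338 and 0.0229 in limma), and DIO-VSG did not (0.0834). At the Cox7b2 site 71342775, DIO-LFD and DIO-VSG passed without that mouse (0.0226 and 0.026 in limma), and CON-LFD did not (0.0515). At the Cox7c site 86288388, CON-LFD mice had 91.3% ± 4.42 (n = 3) and DIO-HFD mice 83.9% ± 4.03 (n = 4), a difference of 1.03 ± 0.49 in M with an adjusted p of 0.611 in limma, which was 0.56 without CON-LFD replicate 2.

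Several of these distant sites lay in stretches of repeated sequence. Of 139 windows of up to 30 bp on each side of a site, 22 shared a run of at least 20 bases with a window listed for another gene, among them 12 of 17 for Ndufa4, 4 of 5 for Cox7b2, 2 of 6 for Cox7c and 2 of 2 for Ndufaf4. A pair that shares 34 bases is shown from the plus strand of GRCm38, with the measured CpGs in capitals.
Listed for Ndufa4, chr6:11451389-11451450: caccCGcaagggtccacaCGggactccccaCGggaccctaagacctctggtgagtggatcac
Listed for Cox7c, chr13:86349421-86349482: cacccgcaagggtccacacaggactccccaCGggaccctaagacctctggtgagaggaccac
The windows lie on different chromosomes. The levels of such sites are uncertain where reads from near-identical copies could be assigned to either, and the part of this in the values was not tested.

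Among promoter sites, few differences stood out. The site 114 bp after the start of Ndufa3, a complex I subunit, was at 40.8, 44.1 and 44.1% in DIO-LFD and at 56.4, 70, 52.7 and 58.1% in DIO-VSG mice, without overlap, a difference of 0.94 ± 0.31 in M with an adjusted p of 0.945 in limma. CON-LFD and DIO-HFD mice lay between 48.3 and 59.9%, so DIO-LFD mice were below those of each other group. In Cox14, a complex IV assembly factor, the site 37 bp after the start was at 61.9, 96 and 80.8% in DIO-LFD and at 66.1, 65, 60.6 and 61.1% in DIO-HFD mice, which overlapped, with 1.56 ± 0.62 in M and an adjusted p of 0.494. The difference was 0.58 without DIO-LFD replicate 2 and 2.38 without DIO-LFD replicate 1. The promoter site 232 bp after the start of Ndufv2, an iron-sulfur subunit of complex I, was at 0% in DIO-LFD replicate 3 and in DIO-VSG replicates 2 and 3, and between 22.2 and 46.2% in the other 11 mice. In the same 3 mice the other end of its fragment was at 77.8, 81.8 and 70.6%, above the other 11 mice.

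The widest range was at a site in an intron of Hdgf, listed for Mrpl24 of the large subunit (87913739), with 31.8, 68 and 29.8% in CON-LFD, 88.7, 58.7, 58 and 57.6% in DIO-HFD, 11.5, 73.8 and 12.6% in DIO-LFD and 44.9, 12, 34.9 and 59.1% in DIO-VSG mice. Mice of the same group differed by up to 62.3 points there. A neighboring site (87913818) was higher in DIO-VSG than in DIO-HFD mice by 1.08 ± 0.36 in M, at 68.8% ± 5.92 (n = 4) against 50.8% ± 11.1 (n = 4), with an adjusted p of 0.15 in limma, or 0.00843 without DIO-HFD replicate 1. Ranges were also wide at 140226797, listed for the complex I assembly factor Ndufaf5 and outside protein-coding genes, from 45.5 to 100%, and at 127513032, upstream of Ndufa4l2, where CON-LFD replicate 1 had 96.8% and the other mice lay between 43.8 and 64.3%. A site 35054 bp upstream (73946379) was listed for Atp5g3, which encodes the c subunit of the ATP synthase. All 4 DIO-VSG mice had 100% there and DIO-LFD mice 83.3, 96.9 and 85.7%. The difference was 3.55 ± 0.8 in M with an adjusted p of 0.864 in limma. Where a level is 100%, M depends on the offset of 0.01. CON-LFD mice had 96.1, 98.2 and 100% and DIO-HFD mice 95.7, 100, 90.7 and 93.7%. At the neighboring site listed for Atp5g3 (73946392), DIO-LFD mice had the same levels. DIO-VSG replicate 1 had 81.8% there, so these groups overlapped. In DIO-VSG against DIO-LFD, sites listed for Ndufa4l2 (127513893, 15.4% against 7.89%), Ndufa4 (11680341, 96.8% against 89.9%) and Ndufaf5 (140277048, 83.7% against 73.4%) were also higher without overlap. Each had an adjusted p of 0.945 in limma. The Ndufa4l2 difference was 1.11 in M, or 0.65 without DIO-LFD replicate 3. Another Ndufa4l2 site nearby (127513947) was lower in DIO-VSG by -0.92 in M, with an adjusted p of 0.709 in limma without DIO-HFD replicate 1. Of the 25 tested sites listed for Ndufa4l2, 1 was higher and 1 lower in this comparison at an unadjusted p under 0.05 (2.42% and 1.55% of all tested sites).

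By role, the sites listed for complex I subunits (63 sites, 10 genes) had a median level of 62.6%, those for the large ribosomal subunit (36 sites, 11 genes) 70%, the small subunit (32 sites, 5 genes) 76%, the ATP synthase (8 sites, 4 genes) 61.8% and complex IV subunits (11 sites, 2 genes) 88.3%. The complex I class was set by gene symbol. Most of its sites were the 17 distant sites of Ndufa4 and the 28 sites of its relative Ndufa4l2. Complex I assembly factors had 77.4% over 9 sites, complex IV assembly factors 57.8% over 4 and complex II 77.5% over 5. Complex III was represented by 1 site, listed for Uqcr11 but in a coding exon of Tcf3, at 78.1%. At promoter sites alone, the medians were 48.3% for complex I subunits (21 sites, some of them of Ndufa4l2), 48.7% for Ndufaf3 (3 sites), 47.8% for the ATP synthase genes Atp5b and Atp5d (4 sites), 47.2% for Cox14 (3 sites), 47.4% for the large ribosomal subunit (10 sites), 40.2% for the small subunit (4 sites) and 64.7% for Sdhb of complex II (2 sites).

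Other genes of mitochondrial function were taken from gene lists. Of 30 further respiratory chain and assembly genes, 8 had sites, 22 of which were tested, and 6 were higher and 1 lower in DIO-VSG against DIO-HFD (unadjusted p under 0.05), where 20.2% of all tested sites were higher and 4.85% lower. Of 30 genes of mitochondrial gene expression, 7 had sites, with 9 of 49 tested higher and 1 lower, and 41 of the 60 sites were listed for the mitochondrial RNA polymerase gene Polrmt. Of 20 regulators of mitochondrial content, 10 had sites, with 5 of 39 tested higher and 0 lower. The 141 tested sites of 30 cytosolic ribosomal protein genes had 42 higher and 10 lower. Higher sites were thus 9 of 49 and 5 of 39 in the lists of gene expression and regulators, no more than the share over all sites. They were 6 of 22 among the further respiratory chain genes and 42 of 141 among the cytosolic ribosomal proteins, above that share. In these lists 0 sites passed an adjusted p of 0.05 in limma in any of the 4 comparisons. Of 10 adipocyte markers, 5 had a site, and their 8 promoter sites had a median of 48.4%, from 2.9% at Pparg to 78.4% at Lipe. In the same comparison and beside the same shares over all sites, 13 of the 25 tested sites listed for lymphocyte markers passed an unadjusted p under 0.05, 8 higher and 5 lower, and 11 of the 34 for adipocyte markers, 10 higher and 1 lower. For epithelial markers 1 of 10 tested sites was higher and 2 lower, for endothelial markers 2 of 4 were higher, and for macrophage markers 0 of 1 passed. Methylation does not give the share of each cell type here, and its part in the differences was not tested.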

How the data were processed

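RRBS was performed on mammary adipose tissue of 14 mice, with MspI fragments of 40 to 170 bp collected. The reads had been mapped to mm10 (Bismark) and called (methylKit) by the authors, who deposited the methylation level of each site and mouse as a fraction with no read counts, so depth per mouse and precision per value are unknown. Their methods name filters on bases of low variability and of extreme coverage and the removal of outlier mice. Of the sites deposited, those with a standard deviation under 0.05 were still present and were left out of tests here. Groups came from the sample labels, where nothing names litters or batches. Levels of mice of 1 group were identical at 0.96 to 2% of sites, so each mouse was counted once.

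Sites were taken by symbol of the nearest transcript, and the members and gene lists were chosen with earlier results of these data known. Levels b were converted to M = log2((b + 0.01)/(1 - b + 0.01)) and fitted in 1 model of 4 groups with limma 3.58.1 in R 4.3.3, with Benjamini-Hochberg adjustment over 65610 sites. Sites were placed in genes by GENCODE M21, and sequences came from the RefSeq GRCm38 genome and promoter windows. Fragments were pairs of consecutive CCGG, 40 to 170 bp apart, with both end CpGs measured. The fit was tested on simulated data. Replicate numbers were not treated as pairs. Named sites were those with an adjusted p under 0.05 (0 found), per comparison the 5 with the smallest p, over the 14 mice the 6 with the widest range (each at most 1 per gene), the highest promoter island sites outside CCGG (only Mrps18a has one), the 6 genes with most sites, and per role the gene with most promoter island sites. Mrpl49, Mrpl43, Ndufv1, Sdhb, Mrps12, the Ndufa4l2 sites near its start, the sites in CCGGAAG and Twnk were chosen with their values known. The settings varied were the offset (0.1), levels in place of M, trended and robust variance, 2 groups only, no filter or a minimum of 0.1, centred mice, a replicate block, sites outside CCGG, the mean of gene means, and leaving out each mouse. Figures were drawn with Matplotlib 3.10.9.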

Additional observations from a re-analysis of the deposited data

Results flagged for a closer look

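In groups of 4 mice, 32 groups of values were examined for a mouse far from the other 3 relative to the range (its gap to the nearest, as a share of the range, above Dixon's 95% critical value), and 5 were found. Independent groups would give about 1.6 by chance. These groups share mice and include sites named from the same data, so no excess over chance can be read from the count. In 3 of these DIO-HFD replicate 1 was the distant mouse. Its mean over sites outside promoters was 78.6%, against 70.1, 70.4 and 69.6% (0.911 of the range). At the Mrps23 site 88183482 it had 50.8%, against 80.6, 76 and 78.1% (0.849), and at the Ndufa4 site 11451774 it had 93.8%, against 85.7, 85.7 and 84.8% (0.903). At the Ndufa4 site 11451393, DIO-VSG replicate 4 had 87.5%, against 100, 98.1 and 100% (0.846). At the Ndufaf5 site 140277048, DIO-HFD replicate 3 had 61.5%, against 78.8, 78 and 80.5% (0.87).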

How the results depend on the processing

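The count of sites of these genes with an adjusted p under 0.05 was 0 in the 4 comparisons under each alternative other than leaving out DIO-HFD replicate 1. Leaving out each mouse gave 0 to 14, 0 to 16, 0 to 40 and 0 to 0 in CON-LFD, DIO-LFD and DIO-VSG against DIO-HFD and DIO-VSG against DIO-LFD. At an unadjusted p under 0.05 the counts of 7, 12, 25 and 6 ranged from 3 to 36, 3 to 37, 17 to 60 and 2 to 11, with the highest in each comparison without DIO-HFD replicate 1. Without CON-LFD replicate 3 the first was 17, without DIO-HFD replicate 3 it was 3 and without replicate 4 it was 4. The second was 3, 7 and 5 without DIO-HFD replicates 2, 3 and 4, and the last was 11 and 2 without DIO-LFD replicates 1 and 3. With 2 groups only they were 4, 2, 25 and 10, and with an SD of at least 0.1, which leaves 31 sites, 3, 6, 12 and 0. With sites outside CCGG, which leaves 86, they were 6, 5, 20 and 5. With each mouse centred they were 7, 9, 22 and 2, and the split of higher and lower sites went from 4 and 3 to 1 and 6, 10 and 2 to 5 and 4, 17 and 8 to 8 and 14, and 5 and 1 to 1 and 1. Unadjusted shares of all tested sites under the alternative settings are not given here, so these counts have no background beside them. The replicate block gave 0 adjusted calls and 9, 11, 31 and 6 unadjusted. The numbers were not taken as pairs, since 4 of 19 same-numbered pairs had a correlation of deviations over 0.1, where each pair was required to. Of the 14 mice, 8 were nearest to a mouse of their own number. Differences in the mean promoter island level ranged from -2.96 to -0.549, -2.32 to -0.38, 0.145 to 1.3 and 1.04 to 2.98 points without single mice. They could not be computed outside CCGG, where no such site passed the filter. The named sites kept their direction under the alternatives run, and 10 of the 20 named tests gained an adjusted p under 0.05 without DIO-HFD replicate 1. Depth per site is unknown, so counting error could not be separated from variation between mice.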
